A study of Mus musculus with 6 samples.

Results

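The TGF-beta pathway genes examined here were the ligand gene Tgfb1, the receptor genes Tgfbr1, Tgfbr2 and Tgfbr3, the Smad genes Smad2, Smad3, Smad4 and Smad7, and the co-repressor genes Ski and Skil, in mouse LSK cells that carried or had lost the transcription factor SRF. LSK cells are bone marrow cells without lineage markers that carry Sca1 and c-Kit, a fraction made up of stem cells and multipotent progenitors of blood. The genes were taken through every probe set whose platform annotation names that gene alone, which gave 24 of the 45037 probe sets tested and 10 of 18193 genes. Of these genes 4 had 3 probe sets and 6 had 2. All animals were of strain C57BL/6 and carried Mx1-Cre, a recombinase switched on by interferon, so that its action is not limited to LSK cells. Control animals were Srf+/+;Mx1-Cre and SRF-null animals were Srf flx/flx;Mx1-Cre. Control and SRF-null animals alike received the interferon inducer pIpC, a synthetic double-stranded RNA, at 6 weeks of age in 3 doses of 200 µg spaced by 2 days, and were studied 35 days after the final dose. Each of the 3 control and 3 SRF-null arrays was hybridised with RNA of LSK cells sorted from pooled animals. The sources used here do not say how many animals made up a pool.

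TGF-beta binds the type II receptor encoded by Tgfbr2, which then phosphorylates the type I receptor encoded by Tgfbr1, and Tgfbr3 encodes betaglycan, a co-receptor that presents ligand. The active type I receptor phosphorylates SMAD2 and SMAD3, which enter the nucleus with SMAD4 and regulate transcription. SMAD7 blocks the type I receptor, and SKI and SnoN, the product of Skil, repress SMAD target genes, while transcription of Smad7 and Skil is itself raised by TGF-beta in many cell types. In bone marrow, TGF-beta is known as a signal that keeps hematopoietic stem cells quiescent.

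Values are quantile-normalized log2(signal + 16), on which 4 is the lowest value possible, and differences are SRF-null minus control with n = 3 arrays per genotype. The median deposited signal of an array was 200.4 to 292.2, and Spearman correlations over all probe sets were 0.969 to 0.980 within and 0.971 to 0.982 between genotypes. Srf itself was at 13.04, 13.00 and 13.04 on the control arrays and 12.58, 12.43 and 12.80 on the SRF-null arrays for its brighter probe set (difference −0.42, SE 0.14, limma adjusted p = 1), and its dimmer probe set differed by 0.10 (SE 0.35). The sources used here do not place either probe set against the floxed exons, so these values do not measure the deletion. Of 8 measured marker genes of LSK cells, stem cells and progenitors 4 were higher and 4 lower in SRF-null cells, 0 passed adjustment by limma and 0 had an unadjusted p under 0.05. Kit, which encodes the sorting marker c-Kit, lay between 14.81 and 15.44, the progenitor marker gene Cd34 between 16.72 and 16.93 and the stem cell marker gene Procr between 14.16 and 15.51. Slamf1, whose product marks stem cells within the fraction, was at 11.60, 12.33 and 11.80 on the control and 11.61, 10.73 and 9.18 on the SRF-null arrays, an overlap with a difference of −1.41 (SE 0.62). The share of stem cells in the sorted cells was not measured, and its part in the results was not tested. Ly6a, the Sca1 gene, had no probe set naming it alone. Control replicate 2 lacked Y-linked signal (Eif2s3y at 4.37, against 13.06 to 14.50 elsewhere) and SRF-null replicate 1 lacked Xist signal (5.03, against 15.13 to 16.24), so each carried transcripts of 1 sex where the other arrays carried those of both. Arrays of equal replicate number deviated together across genotypes, and differences within these number pairs are therefore given for the genes they bear on.

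On their brightest probe sets, Skil was the 1 gene of 10 whose arrays did not overlap between genotypes, with all SRF-null arrays lower, where 10.6% of all genes had separate groups, and its limma adjusted p = 1. The other 9 genes differed by −0.18 to 0.13 on their brightest probe sets and overlapped between genotypes. By limma 0 of the 24 probe sets passed an adjusted p of 0.05, and 0% of all probe sets did. At an unadjusted p under 0.05 there were 2 of 24, both lower, where 4.39% of all probe sets met that limit and 2.02% did so while lower. The groups did not overlap for the same 2 probe sets, against 9.24% of all probe sets, or 4.5% counting only those lower. The median difference of the 24 was −0.055 and their median absolute difference 0.13, beside 0.00 and 0.15 over all probe sets. When the replicate number entered as a block, 3 of 24 had an unadjusted p under 0.05, and so did 7.08% of all probe sets, with 0% past adjustment.

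**Figure D1:**
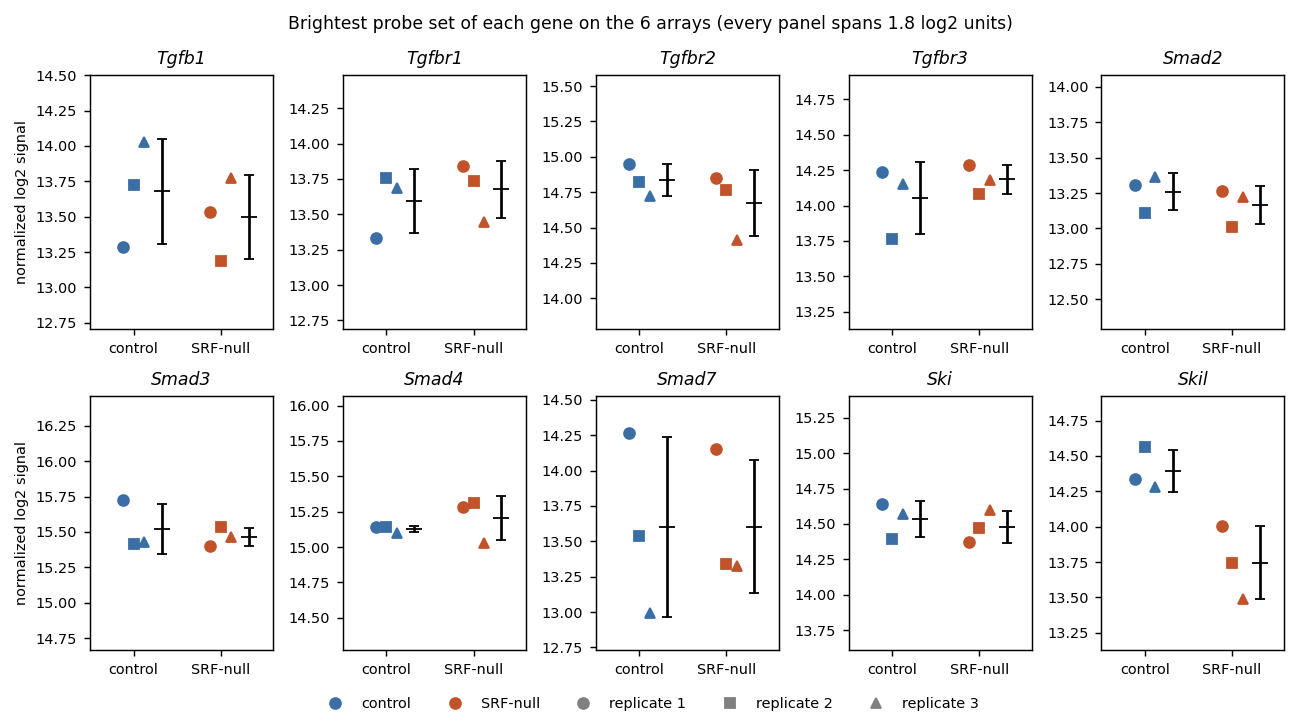
Normalized log2 signal of the brightest probe set of each of the 10 genes on the 3 control and 3 SRF-null arrays, with the group mean and SD in black and marker shapes for replicate numbers. The Skil values of the genotypes are separate, at 14.28 to 14.56 and 13.49 to 14.01, and the other 9 genes overlap.

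The co-repressor gene Skil had the smallest p among the brightest probe sets. It was at 14.34, 14.56 and 14.28 on the control arrays and at 14.01, 13.74 and 13.49 on the SRF-null arrays. All SRF-null arrays thus lay below all control arrays, and the deposited signals were 20585, 24811 and 20008 against 16479, 13351 and 11301. The group means were 14.39 ± 0.15 and 13.75 ± 0.26 (SD, n = 3), a difference of −0.65 (SE 0.18, 95% interval −1.08 to −0.21), or 1.56-fold lower. The unadjusted limma p was 0.0115, and over all probe sets the limma adjusted p = 1. An exact permutation test, two-sided, gave p = 0.1, the smallest that 3 against 3 arrays allow. Within the number pairs the SRF-null array was lower by −0.33, −0.82 and −0.79, and the difference was −0.69 when both arrays of 1 sex were left out. The second Skil probe set was dim, at 5.46, 5.70 and 5.06 against 5.28, 4.49 and 5.76, and its difference of −0.23 (SE 0.36) was below its standard error. Ski, which encodes the related co-repressor, was at 14.64, 14.39 and 14.57 on the control arrays and 14.37, 14.47 and 14.60 on the SRF-null arrays. These groups overlapped, with a difference of −0.05 (SE 0.14, 95% interval −0.39 to 0.28), and the second Ski probe set differed by −0.12 (SE 0.17). That Skil and Ski differ in their response was not tested.

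The receptor gene Tgfbr2 gave different values on its 3 probe sets. Its brightest probe set was at 14.95, 14.82 and 14.73 in control cells and 14.85, 14.76 and 14.41 in SRF-null cells. These groups overlapped, and the difference was −0.16 (SE 0.16, 95% interval −0.56 to 0.25), with −0.10, −0.058 and −0.31 within the number pairs. The middle probe set was at 6.67, 6.82 and 7.10 on the control arrays and 6.13, 5.84 and 6.16 on the SRF-null arrays. Here every SRF-null array was below every control array, by 0.82 on average (difference −0.82, SE 0.17, 95% interval −1.24 to −0.40, 1.77-fold). The unadjusted limma p was 0.00309, the limma adjusted p = 0.922, and the exact permutation test again gave p = 0.1, its smallest value. The deposited signals behind it were low, at 104.2, 91.3 and 104.2 against 57.2, 41.4 and 53.7, all below the median signal of any array. Its differences within number pairs were −0.55, −0.98 and −0.94, and without the 2 arrays of 1 sex the difference was −0.88. Adding 1 or 64 in place of 16 before the log gave −0.998 and −0.53. The third probe set lay under a signal of 16 on all 6 arrays and differed by 0.14 (SE 0.18). The sources used here do not say which Tgfbr2 transcripts each probe set detects.

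**Figure D2:**
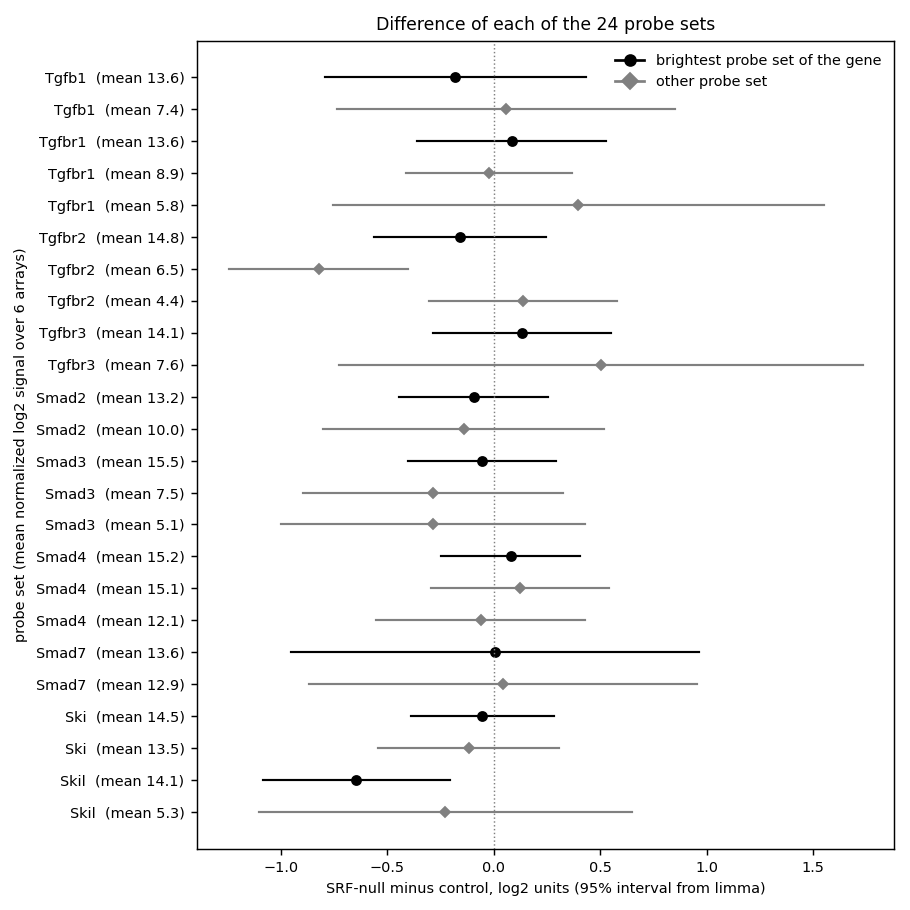
Difference between SRF-null and control arrays for each of the 24 probe sets in log2 units with its 95% interval from limma, where black circles are the brightest probe set of a gene, grey diamonds the others, and the mean log2 signal stands beside each name. The intervals that leave out 0 are those of Skil at −0.65 and of the middle Tgfbr2 probe set at −0.82.

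The type I receptor gene Tgfbr1 was at 13.33, 13.76 and 13.68 in control cells and 13.84, 13.74 and 13.45 in SRF-null cells. The arrays of the genotypes were interleaved, with a difference of 0.08 (SE 0.18, 95% interval −0.36 to 0.53). Its second probe set differed by −0.02 (SE 0.16), and the third, which was dim, by 0.40 (SE 0.47) with SRF-null replicate 2 at 7.06 against 5.16 to 5.87 on the other arrays. The betaglycan gene Tgfbr3 was at 14.24, 13.76 and 14.15 against 14.29, 14.08 and 14.18. Control replicate 2 was the low array, and the groups overlapped with a difference of 0.13 (SE 0.17, 95% interval −0.28 to 0.55). On the dimmer Tgfbr3 probe set the values were 7.15, 6.94 and 8.06 in control cells and 7.65, 7.18 and 8.82 in SRF-null cells. Its difference was 0.50 (SE 0.50), yet the SRF-null array was the higher one in each number pair, by 0.50, 0.24 and 0.77. Blocking on that number gave an SE of 0.16, an unadjusted limma p of 0.0328 and a limma adjusted p = 0.685. Without the block its difference moved with the array left out, at 0.037 without SRF-null replicate 3 and 0.86 without SRF-null replicate 2. Replicate 3 was the highest and replicate 2 the lowest array in both genotypes, so leaving out 1 array unbalances the number pairs. The ligand gene Tgfb1 was at 13.29, 13.72 and 14.03 against 13.53, 13.18 and 13.78, an overlap with a difference of −0.18 (SE 0.25, 95% interval −0.79 to 0.43), and its dimmer probe set differed by 0.06 (SE 0.32).

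Of the 24 probe sets, the dim middle one of Tgfbr2 held the smallest unadjusted limma p, while the brightest Tgfbr2 probe set overlapped between genotypes. The upstream windows of the signalling receptors, Tgfbr2 and its partner Tgfbr1, are therefore shown. They are the 250 bases before the RefSeq transcript start, read 5′ to 3′ on the strand of the gene, with capitals marking the CAGAC motif that SMAD3 and SMAD4 can bind. The Tgfbr2 window is chr9:116175364-116175613 on the minus strand and the Tgfbr1 window chr4:47352972-47353221 on the plus strand of GRCm38.p6.
Tgfbr2: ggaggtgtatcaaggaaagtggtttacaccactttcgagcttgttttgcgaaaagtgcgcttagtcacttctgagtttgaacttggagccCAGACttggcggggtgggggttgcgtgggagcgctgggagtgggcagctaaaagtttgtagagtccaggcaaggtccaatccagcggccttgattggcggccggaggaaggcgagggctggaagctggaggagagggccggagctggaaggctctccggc
Tgfbr1: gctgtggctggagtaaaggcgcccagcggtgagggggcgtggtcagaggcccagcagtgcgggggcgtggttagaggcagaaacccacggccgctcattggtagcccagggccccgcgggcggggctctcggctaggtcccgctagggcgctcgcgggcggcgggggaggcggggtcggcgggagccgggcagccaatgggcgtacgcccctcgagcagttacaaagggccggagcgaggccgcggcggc
The Tgfbr2 window held 1 CAGAC match on either strand and this Tgfbr1 window held 0, and the windows had 58.4% and 74.8% G and C. Of 32851 such windows in the table used here 42.2% held CAGAC on either strand and 1.47% held the CArG box, the site that SRF binds. In the 6 windows matched to Tgfb1, Tgfbr1, Tgfbr2, Smad3 and Ski there was 0 of the CArG box, and 2 held CAGAC, that of Tgfbr2 and a second Tgfbr1 window. No window was matched to Skil, which had the smallest unadjusted limma p among the brightest probe sets. A match is a match of letters and does not show binding, and the letters being missing from a window says nothing about the factor.

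The receptor-regulated and common Smad genes differed by less than the spread between arrays. Smad2 was at 13.31, 13.11 and 13.36 on the control arrays and 13.26, 13.01 and 13.22 on the SRF-null arrays. The SRF-null array was slightly lower in each number pair, by −0.05, −0.10 and −0.14, and the difference was −0.09 (SE 0.14, 95% interval −0.44 to 0.25). Smad3 was at 15.73, 15.41 and 15.43 against 15.40, 15.53 and 15.47. Its groups overlapped, with control replicate 1 the highest array and a difference of −0.06 (SE 0.14, 95% interval −0.40 to 0.29). Smad4, whose product is shared by the TGF-beta and BMP branches, was at 15.14, 15.14 and 15.10 against 15.28, 15.31 and 15.03. SRF-null replicate 3 was the lowest array and the other SRF-null arrays the highest, a difference of 0.08 (SE 0.13, 95% interval −0.25 to 0.41). The other probe sets of these 3 genes differed by −0.14 (SE 0.27) for Smad2, by −0.29 (SE 0.25) and −0.29 (SE 0.29) for Smad3, and by 0.12 (SE 0.17) and −0.06 (SE 0.20) for Smad4. On the second Smad3 probe set the SRF-null array was the lower one in each number pair, by −0.26, −0.16 and −0.44, with an SE of 0.14 under the block and a limma adjusted p = 0.760. For the 8 genes other than Skil and Smad7, the intervals of the brightest probe sets reached from −0.79 to 0.55, so that a fall of over 1.74-fold or a rise of over 1.47-fold lay outside all of them. These bounds hold for the brightest probe sets only, and each 95% interval is for 1 gene, without adjustment for the number of genes. The intervals of Skil (−1.08 to −0.21) and Smad7 (−0.95 to 0.96) went past these bounds. Intervals of probe sets that were not the brightest did so too, among them the middle Tgfbr2 (−1.24 to −0.40) and the dimmer Tgfbr3 probe set (−0.73 to 1.73).

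Smad7, the inhibitory Smad, varied more between arrays than any other of these genes on its brightest probe set, and its group means were nearly equal. It was at 14.26, 13.54 and 13.00 on control replicates 1 to 3 and at 14.15, 13.34 and 13.32 on SRF-null replicates 1 to 3. Both replicate 1 arrays were thus the high ones, and the differences within number pairs were −0.11, −0.20 and 0.33. The group means were 13.60 ± 0.64 and 13.60 ± 0.47 (SD, n = 3), a difference of 0.00 (SE 0.39, 95% interval −0.95 to 0.96). Blocking on the replicate number gave an SE of 0.17. The second Smad7 probe set was at 13.09, 13.18 and 12.27 against 13.19, 13.23 and 12.25. There both replicate 3 arrays were the low ones, with pair differences of 0.10, 0.05 and −0.02, an SE of 0.37 without and 0.13 with the block, and a difference of 0.04. What the arrays of 1 number share is not stated in the labels, and its part in these values was not tested.

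**Figure D3:**
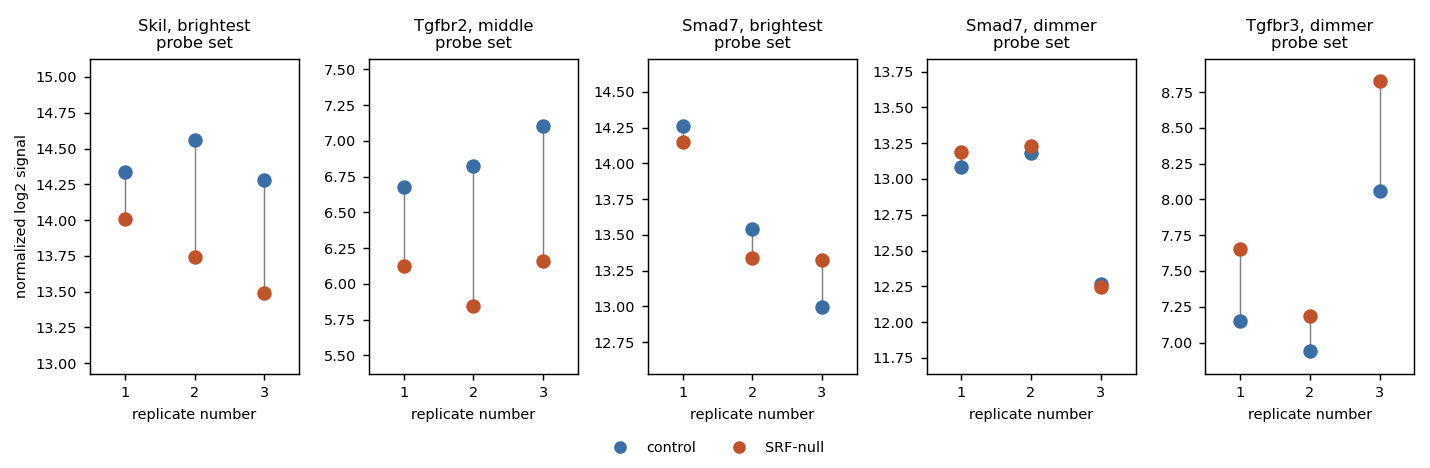
Normalized log2 signal by replicate number for 5 probe sets, with control arrays in blue, SRF-null arrays in red, and a grey line joining the arrays of 1 number. All SRF-null arrays lie below all control arrays for Skil and the middle Tgfbr2 probe set. For the dimmer Tgfbr3 probe set the genotypes overlap, and each SRF-null array lies above the control array of the same number. For both Smad7 probe sets each SRF-null array lies within 0.33 of the control array of the same number.

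Other pathway genes were read from 4 lists, with 1 probe set per gene, and 4 of 67 measured genes had an unadjusted p under 0.05, where 4.95% of all genes did. Of these 4, 3 were lower and 1 higher in SRF-null cells, beside 2.37% and 2.58% of all genes, and 0 passed adjustment over all probe sets by limma. The groups did not overlap for 5 of 67, beside 10.6% of all genes. The median difference over the 67 was −0.0100, and over all genes −0.0069. Without control replicate 1 the count was 8 of 67, and 7.27% of all genes then met the limit.

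Among ligands, latency proteins and extracellular antagonists 1 of 17 genes met that limit, and 13 of 17 were lower with a median of −0.16, beside 51.4% of all genes that were lower. Of these 13, 6 lay under a signal of 16 on at least 3 arrays, Bmp4 among them. Bmp4, a ligand of the BMP branch, was at 5.27, 5.54 and 6.22 in control cells and 4.07, 4.21 and 4.66 in SRF-null cells. These groups were separate, with a difference of −1.36 (SE 0.30, limma adjusted p = 0.931), but the SRF-null values were close to the bottom of the scale. Thbs1, which encodes thrombospondin 1, an activator of latent TGF-beta, was at 9.16, 13.24 and 11.57 against 4.98, 11.90 and 7.67. It spread widely within both genotypes, and its difference of −3.14 (SE 1.92) had an unadjusted limma p of 0.153, or of 0.00587 when blocked on the replicate number (limma adjusted p = 0.580). In every number pair the SRF-null array was the lower one. Nrros, whose product holds latent TGF-beta at the surface of myeloid cells, was at 14.32, 14.55 and 14.54 against 14.30, 14.24 and 14.19, a separation by a narrow margin with a difference of −0.23 (SE 0.13). Ltbp4, a latent TGF-beta binding protein gene, differed by −0.56 (SE 0.24).

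Among the other receptors 1 of 11 genes met the limit. Eng, the gene of the co-receptor endoglin, was at 13.84, 13.71 and 13.50 in control cells and 13.23, 13.03 and 12.83 in SRF-null cells. Each SRF-null array was below every control array, with a difference of −0.66 (SE 0.17, limma adjusted p = 1). The other co-receptor gene, Tgfbr3, differed by 0.13, and whether Eng and Tgfbr3 differ in their response was not tested. The activin and BMP receptor genes Acvr2b and Acvr1 differed by 0.36 (SE 0.25) and −0.37 (SE 0.31), and the decoy receptor gene Bambi by −0.35 (SE 0.39). Among other Smads and regulators 0 of 22 genes met the limit by limma, adjusted or not, with a median of 0.0071. The ubiquitin ligase gene Wwp1 (0.21, SE 0.18), the deubiquitinase gene Usp4 (−0.20, SE 0.17), the co-repressor gene Tgif2 (−0.26, SE 0.23) and Smad1 (0.13, SE 0.14), of the BMP branch, had the smallest p in that list. Among genes that TGF-beta regulates in various cell types 2 of 17 met the limit, in opposite directions. Junb, an AP-1 subunit gene, was at 11.28, 11.52 and 11.66 against 10.61, 11.04 and 10.24 (difference −0.86, SE 0.24, limma adjusted p = 1). Gadd45b, an inducible stress gene, was at 10.999, 11.19 and 11.45 against 12.21, 11.58 and 11.99, so its arrays were higher in SRF-null cells (0.71, SE 0.21, limma adjusted p = 1). Myc, which TGF-beta represses in epithelial cells, differed by −0.55 (SE 0.35) and Zeb2 by 0.27 (SE 0.21), both with overlapping groups.

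**Figure D4:**
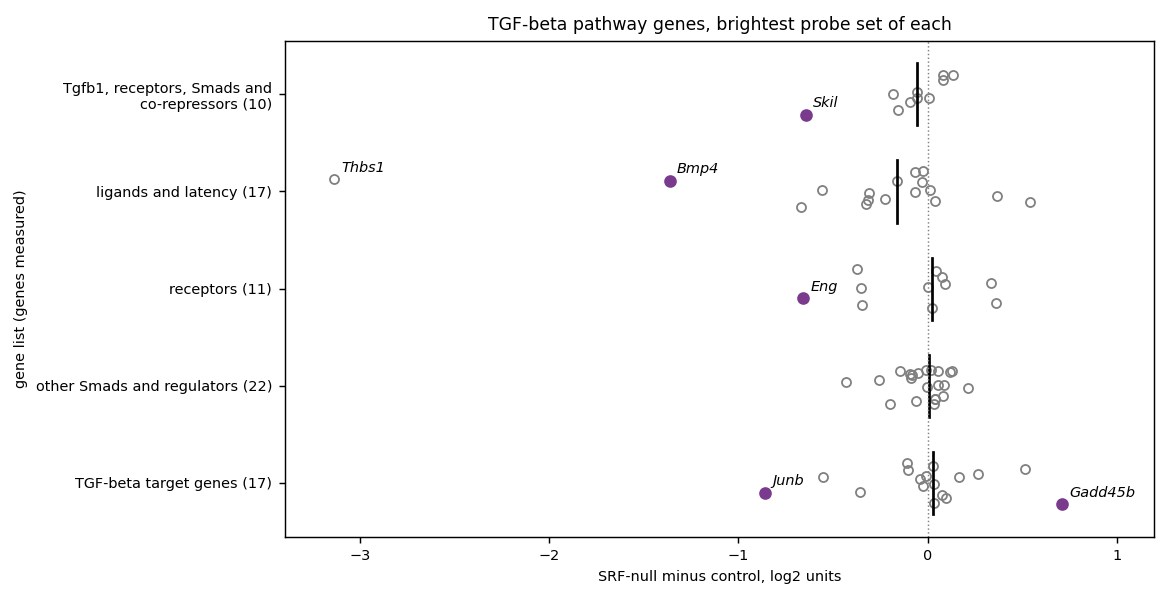
Difference between SRF-null and control cells in log2 units for the 10 genes and for 4 lists of other pathway genes, each gene by its brightest probe set, with filled points for an unadjusted limma p under 0.05 and a black bar at the list median. Skil, Bmp4, Eng and Junb are the filled points to the left and Gadd45b the one to the right, and Thbs1 at −3.14 is open because its arrays spread widely.

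The genes whose array values ran most closely with each receptor gene were taken over the 6 arrays among 10761 genes with a mean of at least 8. With Tgfbr2 they were Trim6 (Pearson r = 0.994), Plcb3 (0.987) and Mia3 (0.986), with Tgfbr1 they were Glrp1 (0.989), Sparc (0.985) and Acbd4 (0.985), and with Tgfbr3 they were Kdm3b (0.972), Ctdspl2 (0.968) and BC025920 (0.958). An r above 0.95 was found for 29, 19 and 7 of the 10761 genes with Tgfbr2, Tgfbr1 and Tgfbr3. The genes named had the highest of that many values, each from only 6 arrays. The values share arrays and their normalization, and they are a description only.

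Markers of other blood cells were measured beside these differences, and 0 of them passed adjustment by limma. Of all genes 4.95% had an unadjusted limma p under 0.05, and 2.58% did so while higher in SRF-null cells. For T and NK cells 7 of 8 measured markers were higher in SRF-null cells, 3 of them at an unadjusted p under 0.05, and their summed signal was 57791 to 66478 on the control and 75429 to 85766 on the SRF-null arrays without overlap, with Cd3g under a signal of 16 on all arrays. Nkg7 alone made up 97.7% to 98.8% of that sum, so it stands for 1 gene. The 3 markers at that limit were Cd247 (difference 0.68, SE 0.18), Cd4 (1.11, SE 0.34) and Nkg7 (0.40, SE 0.13). For each of them all SRF-null arrays were above all control arrays, and 0 arrays lay under a signal of 16. The T cell genes Cd3d and Cd8a lay between 4.24 and 5.05 and between 5.41 and 6.23, close to the bottom of the scale. Cd3e reached 7.54 and 7.51 on SRF-null replicates 2 and 3. For dendritic cells, a list that includes the progenitor gene Flt3, 4 of 5 were higher, with sums of 65015 to 71631 and 76449 to 86030 and no marker under 16 on all arrays. Flt3 and H2-Ab1 made up at least 86.7% of these sums, each overlapped between genotypes, and 0 of the 5 had an unadjusted p under 0.05. For monocytes and macrophages 8 of 8 were higher, 4 of them at an unadjusted p under 0.05, with overlapping sums of 12364 to 32887 and 30048 to 38753 and no marker under 16 on all arrays. Csf1r and Cd68 made up at least 71.1% of these sums. Of the 8 markers 2 did not overlap between genotypes, Mrc1 (difference 2.08, SE 0.55) and C1qa (1.70, SE 0.56). The sums of the other 7 of 10 marker lists overlapped too. Of mast cell and basophil markers 3 of 5 were higher and 2 lower. The 1 with an unadjusted limma p under 0.05 was Cma1, lower in SRF-null cells (difference −1.68, SE 0.41). Of stromal and endothelial markers 4 of 7 were higher and 3 lower, and the 1 at that limit was Col1a2, also lower (−1.78, SE 0.69). Both had separate groups. Of all genes 2.37% met that limit while lower. The part of such cells in the values of Skil, Tgfbr2, Eng and Bmp4 was not tested, and in sorted bulk RNA fewer cells of a type cannot be told apart from less RNA per cell.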

How the data were processed

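RNA of sorted LSK cells was measured on 6 arrays. NuGEN reagents amplified 30 ng of total RNA and labelled it with biotin, per the labels' protocols. The deposited values are 1 linear intensity per probe set and array, a unit read from the values, and the sources used here do not give the summary, background correction or scaling used by the authors. The table held 45101 probe sets, and the 64 Affymetrix controls were left out. In the platform annotation 34945 probe sets named 1 gene, 932 several and 9160 none in the table used here, and a RefSeq table held the gene ID of 34741 of the first (GRCm38.p6), where 0 had a newer symbol. The study's description and that annotation name different array types, so the annotation was used as it stands.

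Intensities were converted to log2(value + 16) and, because array medians differed by 0.51 against a limit of 0.1, quantile normalized. Fold changes on this scale understate dim genes, and 26.0% to 26.9% of probe sets lay under 16 per array. Groups were compared with limma 3.58.1 in R 4.3.3 (lmFit, eBayes, two-sided, genotype alone) on all 45037 probe sets with Benjamini-Hochberg adjustment over them, at 0.05. The fit was tested on simulated data. Detection calls were not used. Precision is limited by the number of arrays. The p-values measure the spread between these pooled samples only. A gene's brightest probe set has the highest mean over the 6 arrays. Named were every member, Srf, up to 4 genes per pathway list by smallest p, and the 3 genes most correlated with each receptor. The members, lists and alternatives were chosen with earlier results of these data known. Of listed pathway genes, Lrrc32 had no probe set naming it alone, and 1 other is not reported here.

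Replicate numbers come from the sample titles. Deviations from group means correlated at 0.473, 0.210 and 0.427 for equal numbers and −0.424 to 0.0135 for unequal ones, so the numbers were taken to pair the arrays, with the block as an alternative. The alternatives were other offsets, normalizations and variance models, a filter on dim probe sets, 1 probe set per gene, the replicate block and arrays left out. Promoter windows were matched by symbol for 5 of 10 genes from RefSeq. Figures were drawn with matplotlib 3.10.9.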

Additional observations from a re-analysis of the deposited data

How the results depend on the processing

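Skil kept its direction and an unadjusted p under 0.05 in 15 of 15 alternatives (−0.77 to −0.52, limma p 0.00351 to 0.0420, smallest adjusted p 0.618), and the middle Tgfbr2 probe set in the 13 that included it (−0.998 to −0.53, limma p 0.00159 to 0.0295, smallest adjusted p 0.497). Of the 24 differences 13 kept their direction under every alternative run, among them 6 of 10 brightest probe sets. Smad7 turned to −0.022 without normalization and −0.043 with median centring, its dimmer probe set to −0.020 with median centring. Without the 2 arrays of 1 sex the dimmer Tgfb1 probe set turned to −0.43, brightest Tgfbr3 to −0.062, dimmer Smad2 to 0.12 and brightest Smad7 to −0.29, and the groups did not overlap for 6 probe sets, beside 27.3% of all probe sets. Groups separate more readily with fewer arrays, and otherwise the cause was not tested.

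With 1 array left out, ranges were −0.27 to 0.26 (dimmer Tgfb1), −0.046 to 0.20 (brightest Tgfbr1), −0.14 to 0.069 (second Tgfbr1), −0.12 to 0.84 (dimmest Tgfbr1, turned without SRF-null replicate 2), −0.0099 to 0.23 (brightest Tgfbr3), −0.29 to 0.13 (dimmer Smad2), −0.11 to 0.046 (brightest Smad3), −0.16 to 0.10 (dimmest Smad4), −0.29 to 0.34 and −0.25 to 0.36 (Smad7) and −0.52 to 0.12 (dimmer Skil). Of those that kept their direction, ranges reached near 0 for brightest Tgfb1 (−0.38 to −0.0078), brightest Tgfbr2 (−0.24 to −0.026), dimmest Tgfbr2 (0.011 to 0.29), dimmer Tgfbr3 (0.037 to 0.86), brightest Smad2 (−0.17 to −0.019), second and dimmest Smad3 (−0.43 to −0.065, −0.52 to −0.017), brightest and second Smad4 (0.027 to 0.17, 0.017 to 0.26) and both Ski probe sets (−0.13 to −0.00010, −0.27 to −0.0032). Separate groups then numbered 2 to 6 of 24 (4 without control replicate 3, 6 without SRF-null replicate 3, beside 17.6% and 20.3% of all probe sets), the pathway count 4 to 8 (8 without control replicate 1) and adjusted calls over all probe sets 0 to 1. Without control replicate 1 or 2, 3 of 24 had separate groups, beside 24.9% and 15.9% of all probe sets. Without SRF-null replicate 1 or 2 these were 3 and 2 of 24, beside 17.8% and 17.3%. The filter on dim probe sets and 1 probe set per gene each left 1 probe set at an unadjusted p under 0.05 and 1 with separate groups, because the Tgfbr2 probe set was not tested there. Of all probe sets tested in these settings 5% and 5.73% met that limit, and 10.1% and 10.6% had separate groups. Over all probe sets 1975 had an unadjusted p under 0.05, but 1230 with median centring, 3428 without control replicate 1, 1291 without the 2 arrays of 1 sex and 3189 with the replicate block. The adjusted call with median centring was Mocs1 (0.0223) and without control replicate 2 Ccnb1ip1 (0.0435), named after their values were seen. The replicate block changed no adjusted call (0 of 45037) and, among the 24, gave the dimmer Tgfbr3 probe set an unadjusted p under 0.05.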
